A study of Mus musculus with 5 samples.

Results

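Cytochrome P450 genes encode haem enzymes that insert oxygen into fatty acids, sterols, retinoids, vitamin D and foreign compounds. They were taken here as every gene whose symbol is Cyp followed by a family number, a subfamily letter and a gene number. The rule found 49 of the 17389 genes in the count matrix. Cyp51, Cyp4a12a and Cyp4a12b have symbols of another form and were not members. The rule reads the symbol and no measured value, but it was set with earlier results of these data known. Levels across cell types are given without a test because the clusters were made from all genes.

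The libraries were dissociated whole kidneys of adult FVB/Ant mice, littermates, sequenced by the 10x Chromium 3′ v3 method. There were 2 wild type libraries, of females (WT female) and of pooled males and females (WT mix). The 3 knockout libraries were of females (KO female), of males (KO male) and pooled (KO mix). The knockout of *Fame* (*Ccdc198*, the gene of the kidney-associated protein KAMP) was made by CRISPR with a double STOP codon after the ATG. The message keeps its 3′ end, so its level does not check the genotype, and *Ccdc198* was at 196 and 71.5 CPM (the gene's unique molecular identifiers, UMIs, scaled to a fixed total) in the WT female and WT mix libraries and at 148, 127 and 83.1 CPM in the KO female, KO male and KO mix libraries. The number of mice behind each library was not given in the sources used here, so p-values measure the spread between libraries, which may be technical. The single male library was also a knockout, so sex, mouse and genotype cannot be told apart in it.

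The 14197 cells held 60492486 UMIs, 1 for each captured RNA molecule. Each library had 1794 to 3567 cells, 9791091 to 15950717 UMIs and a median of 2414 to 3016 UMIs per cell. The single-sex libraries came from run 2 and both mixed libraries from run 3, with a median mitochondrial share of 12.6 to 15.3% in the former and 28.4 to 29.4% in the latter. Of 41 cell type markers, 39 were highest under their own label. The exceptions were Atp11a and Slc22a7, markers of the straight tubule that were higher in PT_f. Pairs of libraries shared 0 to 5 cell barcodes. Levels are CPM of the UMIs summed over the cells of a type in a library, for sums of at least 20 cells. A 3′ UMI marks a molecule and is not scaled by gene length.

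Proximal tubule cells take up and metabolise most of what the glomerulus filters, and they carry most of the P450 enzymes of the kidney. Family 4A enzymes hydroxylate the far end of fatty acids and turn arachidonic acid into 20-HETE, a constrictor of renal vessels. Family 2C and 2J enzymes make epoxides of the same lipid, which relax vessels and act on salt transport. Families 1, 2A, 2D, 2E and 3A handle drugs and other foreign compounds, and in rodents many members of these families differ between males and females.

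The 49 genes held 165187 UMIs, 0.273% of all. Expression was concentrated in few genes. The 13 members with at least 1000 UMIs held 94.8% of the family's UMIs, 28 members had at least 200, and Cyp3a11 had none. In all, 35 members had a UMI in each of the 5 libraries. By role, the 10 epoxygenases held 31.8% of the family's UMIs, the 3 other members of family 4 held 26%, the 15 xenobiotic genes held 20.7% and the 8 omega hydroxylases held 18.8%. The 4 genes of sterols and bile acids, the 3 of vitamin D and the 2 of retinoic acid held 0.896%, 0.490% and 0.366%, and the 2 steroid hormone genes held 0.0164%.

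Summed over the members, the level was highest in the proximal straight tubule (PT_s). The female libraries had 3913 CPM (WT female) and 3678 CPM (KO female), the mixed ones 4939 (WT mix) and 4289 (KO mix), and KO male 8705. The KO male library stood above the other 4, which lay within 1.5-fold of each other. The convoluted tubule (PT_c) had a mean of 2766 CPM and a range of 1512 to 5668, and the cluster PT_2 had a mean of 2821 and a range of 2049 to 4975, so that PT_c and PT_2 did not differ beyond their spread. The cluster PT_1, which the study left without an identity, had a mean of 1777 CPM. PT_f, which the study names for female-specific cells, had a mean of 2408 CPM over the 4 libraries with at least 20 of its cells. Outside the proximal tubule, means ran from 484 CPM in the loop of Henle (LOH) to 1243 in glomerular endothelium (GL_endo) and 1253 in red blood cells (RBC).

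Red cells are not known to make these enzymes, and their values serve here as a yardstick for free RNA in a library, which was not tested. Cyp4b1 was at 57.5, 67.9, 968 and 212 CPM in the red cells of the WT female, KO female, KO male and KO mix libraries, and Cyp2j5 at 293, 321, 643 and 198. Both were highest in KO male, as in PT_s. In the loop of Henle, Cyp4b1 was at 13.9, 6.66, 138 and 88.0 CPM in these 4 libraries in the same order, each time below the red cells. WT mix had 11 red cells, too few for a level, and 211 CPM of Cyp4b1 in the loop of Henle, the highest there. Values of the abundant proximal members at or under the red cell level are not read here as expression of the cell type.

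**Figure D1:**
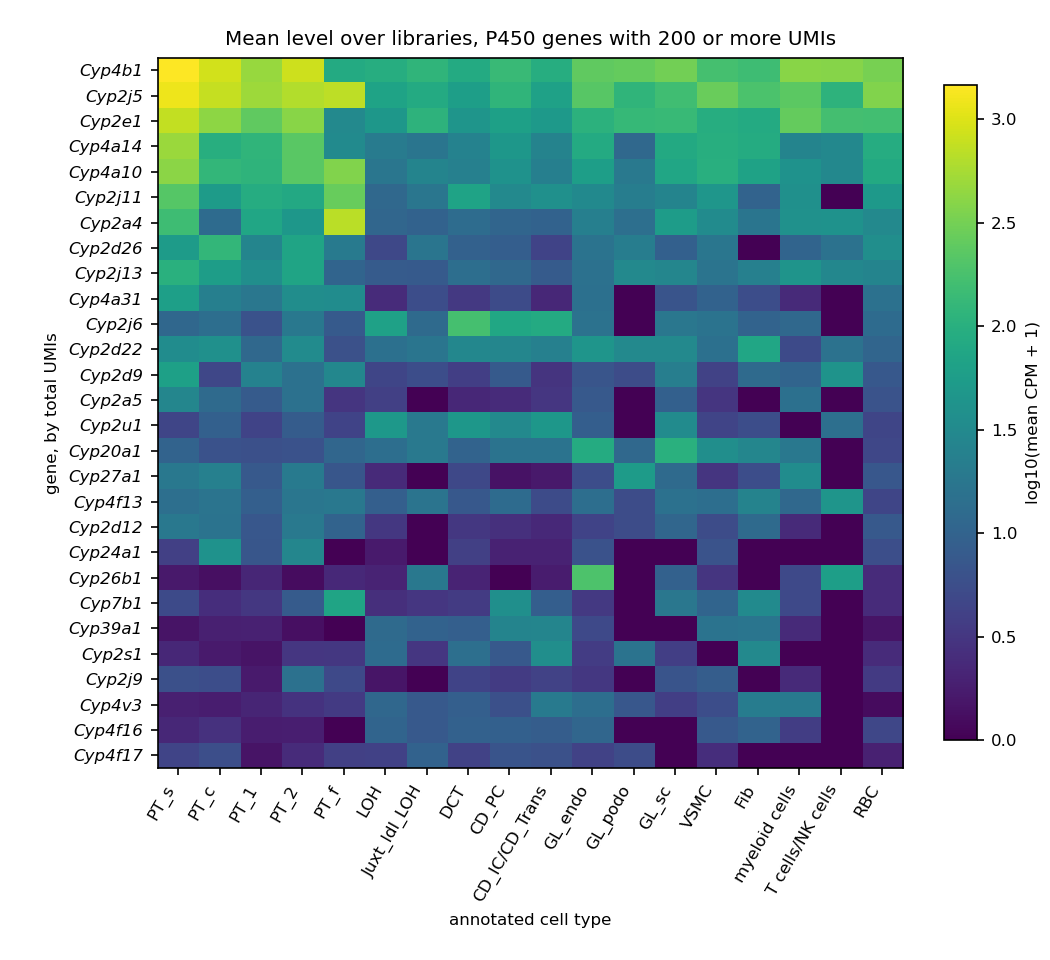
Mean CPM over libraries (color, log10 of mean CPM plus 1) of the 28 members with at least 200 UMIs (rows, by total UMIs) in the annotated cell types (columns). The 5 members with the most UMIs are highest in PT_s and keep a low level in every type, red cells included, while Cyp26b1 peaks in GL_endo, Cyp2j6 in DCT and Cyp2a4 in PT_f.

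Of the 28 members with at least 200 UMIs, 16 had their highest mean level in a proximal tubule cluster, PT_f included. Shares of a gene's UMIs in proximal tubule cells are over PT_s, PT_c, PT_1 and PT_2. The first of them, Cyp4b1, activates furans and aromatic amines and hydroxylates medium-chain fatty acids. It had 42628 UMIs, the most in the family, of which 93.3% were in proximal tubule cells. In PT_s the female libraries had 250 (wild type) and 246 CPM (knockout), WT mix had 1801, KO mix 1200 and KO male 3793. Both female libraries were low, the male library was 15.3-fold higher (95% counting interval 14.7 to 15.9), and the mixed libraries lay between.

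The promoter of Cyp4b1 is shown because the gene held 43.6% of the family's UMIs in the PT_s cells of KO male. The window holds the 250 bases before the RefSeq start, chr4:115647722-115647971 of GRCm38.p6, minus strand. Capitals mark a match to AGAACA, here on the other strand as TGTTCT, and to the STAT5 element TTCNNNGAA.
Cyp4b1: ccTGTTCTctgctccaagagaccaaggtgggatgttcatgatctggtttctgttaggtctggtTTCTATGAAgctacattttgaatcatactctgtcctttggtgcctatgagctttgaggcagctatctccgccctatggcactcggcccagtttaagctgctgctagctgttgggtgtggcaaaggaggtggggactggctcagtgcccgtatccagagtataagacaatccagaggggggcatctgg
The string AGAACA is in 16.2% of all 27025 promoters of this length searched on both strands, and in 6 of the 35 members that the table holds. The STAT5 element is in 7.18% of promoters and in 3 of the 35 members. The nuclear receptor element AGGTCA was found in 4 members (13.8% of promoters), and the xenobiotic core GCGTG in 10 members (28.2% of promoters). These shares are descriptions of short letter strings.

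The sex of a cell was also read within the mixed libraries, where males and females shared a library and a run. A cell with an Xist UMI and no UMI of 4 Y genes was called female, and the reverse male. The rule called 378 female and 800 male cells in WT mix (67.9% male) and 1445 and 425 in KO mix (22.7% male). With at least 2 UMIs asked for, male cells were 42.1% of those called in WT mix and 10.1% in KO mix, so that these shares depend on the rule. It made no wrong call in the single-sex libraries, where the study's filter on rare genes may have removed the genes of the other sex. The part of free RNA from cells of the other sex in these values was not tested.

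In PT_s of the mixed libraries, Cyp4b1 was at 353 CPM in the female cells of WT mix, 304 in those of KO mix, 2077 in the male cells of WT mix and 1941 in those of KO mix. Male cells were higher in both libraries, by 2.78 ± 0.08 on the log2 scale (adjusted p = 1.42e-250, edgeR, library as a block). The ± of a log2 change is the change divided by the square root of the F statistic of its test, an approximate SE. With few residual degrees of freedom, a change of several such units need not pass. The fits over cells had 4 sums, a female and a male one per mixed library, and 1 residual degree of freedom. Their p-values do not measure a spread between mice. The single-sex libraries differed by 4.15 ± 0.20 (adjusted p = 1.73e-07). The direction was the same, and the KO male library held more Cyp4b1 than the male cells of either mixed library.

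The 3 family 4A members with at least 1000 UMIs went the other way. Cyp4b1, Cyp4a10, Cyp4a14 and Cyp4a31 lie within 161.5 kb (GRCm38 chr4:115486200-115647723, GENCODE), as does Cyp4a32, which had 3 UMIs. Cyp4a12a, a 4A gene outside the rule, was instead at 169 and 161 CPM in male and 24.5 and 7.38 CPM in female PT_s cells of WT mix and KO mix. Cyp4a14, a lauric acid omega hydroxylase that is a target of the fatty acid receptor PPARα, was at 975 CPM in the PT_s cells of WT female, 872 in KO female, 148 in WT mix, 435 in KO mix and 6.14 in KO male. The male library had 27 UMIs against 9467 in both female libraries, a ratio of 0.00667 (95% counting interval 0.0044 to 0.0097). The fit over libraries gave -7.01 ± 1.44 on the log2 scale and did not pass (adjusted p = 0.106). Within the mixed libraries, female cells were at 894 and 911 CPM in WT mix and KO mix, and male cells at 12.3 and 21.6. Cyp4a14 was lower in male cells, with a log2 change of -5.64 ± 0.16 (adjusted p = 3.51e-253).

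Cyp4a10, another lauric acid omega hydroxylase, had the same order. The female libraries had 669 (wild type) and 592 CPM (knockout), WT mix had 234, KO mix 458 and KO male 113. The mixed libraries' female cells were at 818 and 865 CPM and their male cells at 129 and 131, a log2 change of -2.56 ± 0.11 (adjusted p = 1.24e-119). Over libraries the difference was -2.27 ± 0.61 (adjusted p = 0.131).

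Cyp4a31 was at 118 and 104 CPM in the female libraries, 36.6 in KO male, and 16.7 and 21.6 in WT mix and KO mix. The mixed libraries lay below both sexes, so that run and sex were not ordered alike for it. Cyp4a31 was lower in the male library (log2 change -1.39 ± 0.17, adjusted p = 1.21e-05) and in male cells of the mixed libraries (-1.32 ± 0.34, adjusted p = 0.00121). The last 300 bases of its transcript share 278 with those of Cyp4a10, so that 3′ reads may be split between them and both values are uncertain to that extent. The remaining omega hydroxylases, Cyp4f13, Cyp4f16 and Cyp4f17, enzymes of leukotriene and long-chain fatty acid breakdown, had 729, 227 and 210 UMIs and did not pass in any sex fit. Cyp4f14 had 25 UMIs and its highest mean in PT_f (9.79 ± 4.11 CPM, SD, 4 libraries). Cyp4v3, a fatty acid hydroxylase, had 240 UMIs, of which 14.6% were in the proximal tubule.

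Among the epoxygenases, Cyp2j5 led. It had 40419 UMIs, 91.5% of them in proximal tubule cells. In PT_s the female libraries had 1165 (wild type) and 1115 CPM (knockout), KO male had 2241, WT mix 755 and KO mix 733. KO male was the highest and both mixed libraries were below every single-sex library. The male library exceeded the female libraries by 1.19 ± 0.13 on the log2 scale (adjusted p = 2.08e-06). Within the mixed libraries the female cells of Cyp2j5 were at 679 and 672 CPM and the male cells at 781 and 814, a rise of 0.39 ± 0.08 (adjusted p = 1.72e-05). Cyp2j5 is best known as an abundant renal epoxygenase whose loss raises blood pressure in female mice.

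Its neighbours on chromosome 4 had other patterns. The 2j members of 1000 UMIs or more, Cyp2j5, Cyp2j6, Cyp2j11 and Cyp2j13, lie within 636.6 kb (GRCm38 chr4:96027534-96664154). Cyp2j13 was at 0 CPM in both female libraries, 156 and 98.5 in WT mix and KO mix, and 246 in KO male. With 1080 UMIs in the male PT_s cells and none in the female ones, it was at least 842-fold higher than the level that 3 UMIs over both female libraries would give. Per the study's methods genes seen in under 3 cells of a library were removed, so a 0 may come from that filter. Male cells of the mixed libraries held 182 and 174 CPM of Cyp2j13 and female cells 24.5 and 11.8, a rise of 3.70 ± 0.25 on the log2 scale (adjusted p = 2.09e-48).

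Cyp2j11 was at 298 and 287 CPM in the PT_s cells of WT female and KO female, 245 in KO male, 96.8 in WT mix and 127 in KO mix. Both mixed libraries, which make up run 3, were the lowest, and the gene passed neither sex fit (adjusted p = 0.0555 in cells, log2 change -0.42 ± 0.15). Cyp2j6 differed from all of them in place: only 23.2% of its 1865 UMIs were in the proximal tubule. It was highest in the distal convoluted tubule (DCT), with 201 CPM (WT) and 202 CPM (KO) in the female libraries, 237 in KO male, 81.9 in WT mix and 117 in KO mix, against 0 to 26.6 CPM in red cells. CD_IC/CD_Trans (mean 85.9), CD_PC (75.2) and LOH (64.0) followed and did not differ from each other beyond their spread.

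In PT_s, where it was scarce, Cyp2j6 was higher in the male library by 0.73 ± 0.24 (adjusted p = 0.0393; 16.2 CPM against 11.9 and 10.7), a call that DESeq2 or the loss of either female library ended. Cyp2j9 had 257 UMIs, with a mean of 14.0 CPM in PT_2. Cyp2c23, the epoxygenase of the 2C family best known in rodent kidney, had 138 UMIs here. It was at 7.32 and 6.17 CPM in the PT_s cells of the female libraries, 1.79 and 1.77 in the mixed ones and 0.455 in KO male, and was lower in the male library, with a ratio of 0.0678 (95% counting interval 0.0081 to 0.254; adjusted p = 6.84e-04). That value rests on 2 UMIs in the male library against 69 in both female ones, and DESeq2 did not call it.

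**Figure D2:**
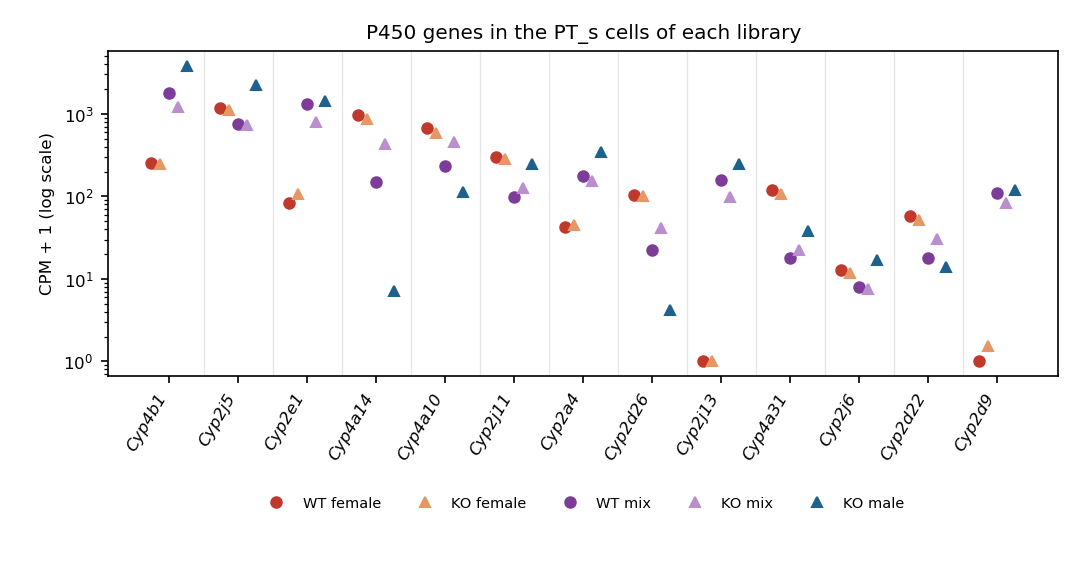
CPM plus 1 (log axis) of the 13 members with at least 1000 UMIs in the PT_s cells of each of the 5 libraries, 1 point per library. WT female and KO female lie close together for every gene, and KO male stands apart upward for Cyp4b1 and downward for Cyp4a14 and Cyp2d26.

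The xenobiotic genes held the sharpest contrasts between close relatives. Cyp2e1, which oxidises ethanol, acetone and paracetamol, had 82.4 (wild type) and 106 CPM (knockout) in the female libraries, 1303 in WT mix, 788 in KO mix and 1450 in KO male. Both female libraries lay below every other library. Cyp2e1 was higher in the male library by 4.15 ± 0.37 on the log2 scale (adjusted p = 0.00434). Female cells of the mixed libraries were at 261 and 131 CPM and male cells at 1520 and 1391, a rise of 3.23 ± 0.11 (adjusted p = 3.50e-28).

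Cyp2a4 and Cyp2a5 are near copies that act on steroids and coumarin. They lie within 536.4 kb on chromosome 7 (GRCm38 chr7:26307169-26843548), and the 250 bases before their starts are 97.6% identical (245 of 251 aligned columns). The next most alike pair of members, Cyp2d10 and Cyp2d9, reached 82.3%, and the median over 595 pairs was 45.5%. Both windows are shown because the genes moved in opposite directions, from chr7:26306942-26307191 and chr7:26835089-26835338 of GRCm38.p6, plus strand, with the bases that the pair does not share in capitals.
Cyp2a4: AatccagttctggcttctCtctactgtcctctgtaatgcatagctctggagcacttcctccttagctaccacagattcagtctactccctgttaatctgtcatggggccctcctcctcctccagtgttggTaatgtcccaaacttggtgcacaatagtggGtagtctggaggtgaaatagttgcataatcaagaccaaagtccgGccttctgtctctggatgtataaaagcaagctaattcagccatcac
Cyp2a5: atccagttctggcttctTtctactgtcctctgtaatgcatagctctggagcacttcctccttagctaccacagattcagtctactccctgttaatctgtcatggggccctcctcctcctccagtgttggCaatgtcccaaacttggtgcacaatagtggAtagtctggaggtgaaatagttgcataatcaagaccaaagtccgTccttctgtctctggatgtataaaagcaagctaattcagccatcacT
Counted from 1 at the first base of the Cyp2a4 window, the substitutions from Cyp2a4 to Cyp2a5 are C19T, T131C, G161A and G205T, and each window has 1 base at an end beyond the other.

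Cyp2a4 was at 41.8 and 44.0 CPM in the PT_s cells of WT female and KO female, 174 in WT mix, 153 in KO mix and 340 in KO male, higher in the male library by 3.2 ± 0.14 on the log2 scale (adjusted p = 1.22e-11). Cyp2a5 was at 36.6 and 44.3 CPM in the female libraries, 16.7 and 22.2 in the mixed ones and 18.9 in KO male, a log2 change of -0.89 ± 0.23 (adjusted p = 0.00784) that did not pass in DESeq2 or without KO female. Male cells of the mixed libraries were higher for Cyp2a4 (181 and 182 CPM against 78.8 and 102 in female cells, a rise of 1.10 ± 0.16, adjusted p = 2.56e-10) and lower for Cyp2a5 (8.51 and 6.36 against 62.5 and 33.9, a log2 change of -2.55 ± 0.39, adjusted p = 2.96e-09). The last 300 bases of the transcripts share 278 (96.9% of the aligned bases), so that reads of one may have been assigned to the other or dropped, and both levels are uncertain.

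The 2d genes on chromosome 15 also split. Cyp2d9, Cyp2d12, Cyp2d22 and Cyp2d26 lie within 423.8 kb (GRCm38 chr15:82370527-82794294). Cyp2d9, a steroid hydroxylase, was at 0 and 0.545 CPM in the PT_s cells of WT female and KO female, 109 in WT mix, 81.6 in KO mix and 117 in KO male. The male library had 515 UMIs against 3 in both female libraries, a ratio of 402 (95% counting interval 137 to 1954). Male cells of the mixed libraries had 126 and 128 CPM of Cyp2d9 and female cells 21.7 and 1.48, a rise of 4.49 ± 0.33 on the log2 scale (adjusted p = 1.36e-33).

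Cyp2d26, a close relative, had the reverse pattern. It was at 102 and 101 CPM in WT female and KO female, 21.2 in WT mix, 40.2 in KO mix and 3.18 in KO male, lower in the male library (log2 change -4.77 ± 0.46, adjusted p = 3.45e-04). Female cells of the mixed libraries were at 109 and 80.4 CPM and male cells at 3.78 and 3.81, a log2 change of -4.48 ± 0.38 (adjusted p = 2.12e-30). Its promoter, chr15:82794246-82794495 of GRCm38.p6 on the minus strand, is shown as the one with AGAACA (in capitals) among the members that were higher in females.
Cyp2d26: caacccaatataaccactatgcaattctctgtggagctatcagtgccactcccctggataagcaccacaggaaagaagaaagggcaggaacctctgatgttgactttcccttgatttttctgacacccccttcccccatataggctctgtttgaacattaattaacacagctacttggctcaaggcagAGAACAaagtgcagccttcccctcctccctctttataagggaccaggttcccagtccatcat
The string AGAACA was thus in Cyp4b1 and Cyp2j6 among 8 members higher in males and in Cyp2d26 among the 2 members higher in females that the promoter table holds.

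Cyp2d12 was at 26.1 and 29.1 CPM in the female libraries, 13.8 and 16.6 in the mixed ones and 2.73 in KO male, and it was lower over libraries (log2 change -3.12 ± 0.33, adjusted p = 1.48e-06) and in male cells (-4.27 ± 0.47, adjusted p = 1.10e-17). Its cells in the mixed libraries were at 78.8 and 36.1 CPM when female and 2.84 and 2.54 when male. Cyp2d22 was at 57.3 and 51.2 CPM in the female libraries, 17 and 29.9 in the mixed ones and 13 in KO male, lower over libraries (log2 change -1.85 ± 0.28, adjusted p = 4.54e-04) and in male cells (-1.32 ± 0.33, adjusted p = 7.75e-04). Cyp2d9 and Cyp2d12 share 263 of their last 300 bases, so that part of a UMI count may belong to the other.

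**Figure D3:**
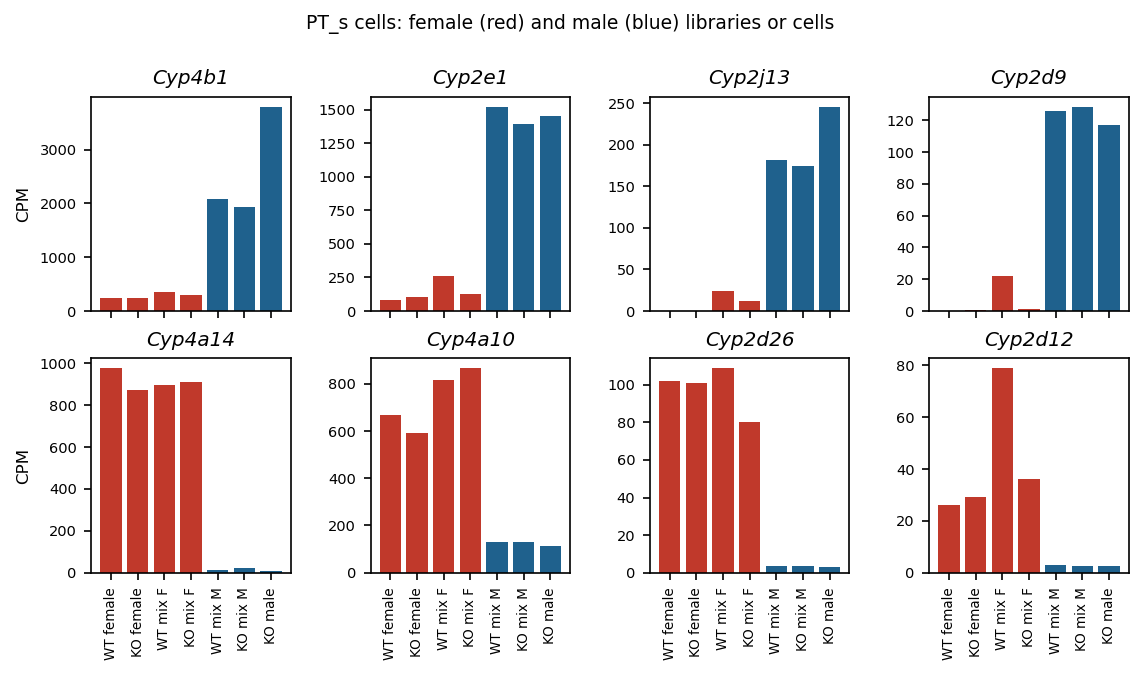
CPM in PT_s cells of 4 members higher in males (top) and 4 higher in females (bottom). Red bars are the female libraries and the female cells of the mixed libraries, blue bars the male cells and the male library, each axis starts at 0, and in all 8 panels the red and blue bars do not overlap. The 8 members were chosen among those that passed a sex fit, so the gap describes these alone. Cyp2j5, not shown, passed both fits without such a gap. Its male cells in the mixed libraries had 781 and 814 CPM and the female libraries 1165 and 1115.

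Counted over libraries, 22.9% of the 10836 genes tested in PT_s differed between the male and the female libraries (13.3% higher and 9.61% lower in the male). The male arm was 1 library, so the spread came from the female and the mixed pairs alone, and a difference of this library cannot be told apart from one of sex. Of the 49 members, 24 passed the filter on low counts and 14 of those differed, 8 higher and 6 lower in the male library. A gene can pass the filter through the sex in which it is high, so the count describes these members only. Their median log2 change was 0.03, against -0.03 over all genes. Within the mixed libraries 17% of 6760 genes differed between male and female PT_s cells (8.93% higher and 8.09% lower in male cells). There 16 members were tested and 13 differed, 6 higher and 7 lower in male cells, with a median of -0.29 against 0 over all genes.

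The 16 members tested both ways had the same sign in both fits, and 11 passed in both: Cyp4b1, Cyp2e1, Cyp2j5, Cyp2j13, Cyp2a4 and Cyp2d9 higher in males, and Cyp4a31, Cyp2a5, Cyp2d12, Cyp2d22 and Cyp2d26 lower. The mixed libraries entered the fit over libraries for its spread, so the fits share them. In PT_c 9 of 12 members tested both ways had the same sign, without Cyp24a1, Cyp2d12 and Cyp4f13. With PT_s, PT_c, PT_1 and PT_2 summed, 15 of 18 did. The shares of all genes with the same sign in both fits, and past the threshold in both, were not counted. By edgeR in PT_s, Cyp4a10 and Cyp4a14 passed only in cells, and over libraries DESeq2 also called members that edgeR did not. Cyp27a1, Cyp2c23 and Cyp2j6 passed only over libraries, and Cyp2c23 and Cyp2j6 were not tested in cells. DESeq2 called 10 of the 14 members over libraries and 9 of the 13 in cells, without Cyp2d22, Cyp2d9, Cyp2j5 and Cyp4a31 in the latter. Of all genes in PT_s, DESeq2 called 1030 over libraries, against 2480 by edgeR, and 230 in cells, against 1151.

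**Figure D4:**
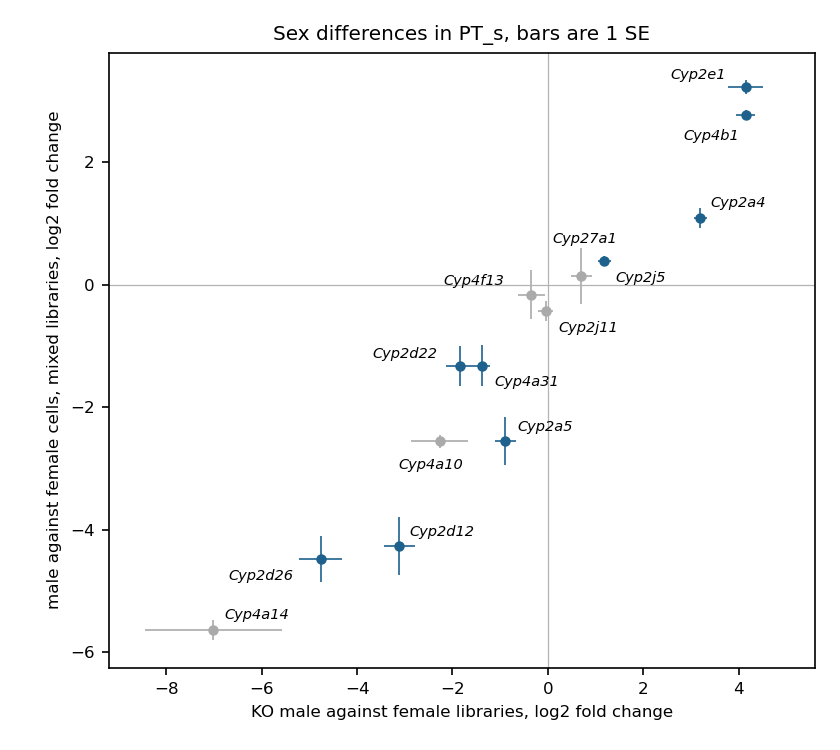
Log2 fold change in PT_s, KO male library against the female libraries (x axis) and male against female cells of the mixed libraries (y axis), with bars of 1 approximate SE (from the F statistic), for 14 of the 16 members tested both ways. Blue points passed in both fits, grey points did not, Cyp2j13 and Cyp2d9 are left out because they had 3 UMIs or fewer in the female libraries, and all 14 points have the same sign on both axes.

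In PT_c fewer genes differed by sex, 4.73% of 9610 over libraries (2.61% higher and 2.12% lower in the male). Of 23 members tested, 5 differed. Cyp2j5 (1.11 ± 0.14), Cyp2a4 (3.48 ± 0.50), Cyp2j13 and Cyp2d9 were higher, and Cyp2d26 was lower (-1.18 ± 0.22, log2 scale). Cyp4b1 and Cyp2e1 were 13.5-fold and 25.8-fold higher in KO male and did not pass (log2 change 3.66 ± 0.57 and 4.62 ± 0.77, adjusted p = 0.162 and 0.179). Without WT mix or KO mix more members passed, and more of all genes. Within the mixed libraries 4.81% of 4363 genes differed (2.38% higher and 2.43% lower in male cells), and 7 of 12 members did. Cyp2e1 (2.81 ± 0.13), Cyp4b1 (1.91 ± 0.10), Cyp2j13 (3.07 ± 0.36) and Cyp2j5 (0.67 ± 0.11) were higher in male cells, and Cyp4a14 (-4.07 ± 0.35), Cyp4a10 (-1.35 ± 0.21) and Cyp2d26 (-1.27 ± 0.23) were lower.

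The same genes were set side by side in PT_s and PT_c by a test of the difference of their sex effects, which was added after the data were seen. Over libraries 9.55% of 10763 genes had a sex effect that differed between PT_s and PT_c, and 6 of 25 members did. Within the mixed libraries 3.09% of 6410 genes and 4 of 17 members did. Cyp2d26, Cyp2d12, Cyp4a10 and Cyp4b1 passed both ways. Cyp2d26 was at 155 and 162 CPM in the PT_c cells of WT female and KO female and at 73.3 in KO male, where PT_s cells had 3.18. Male PT_c cells of the mixed libraries likewise kept 71.1 and 65.9 CPM of Cyp2d26, against 3.78 and 3.81 in male PT_s cells. Female PT_c cells had 176 and 159 CPM, so that male cells were lower in both clusters, and by more in PT_s.

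Cyp2d12 was not lower in the male PT_c cells of the mixed libraries, which had 25.1 and 19.9 CPM in female and 34.6 and 21 in male PT_c cells. The effect in PT_s differed from that in PT_c by -3.08 ± 0.70 over libraries (adjusted p = 4.18e-04) and -4.27 ± 0.66 in cells (adjusted p = 1.56e-07). Cyp4a10 was at 174 and 113 CPM in the PT_c cells of WT female and KO female and at 79.3 in KO male. Its effect in PT_s minus that in PT_c was -1.39 ± 0.21 on the log2 scale over libraries (adjusted p = 1.21e-07) and -1.34 ± 0.23 in cells (adjusted p = 4.98e-06). Cyp4b1 was at 222, 169 and 2544 CPM in the PT_c cells of these 3 libraries, and its rise was larger in PT_s by 0.49 ± 0.12 over libraries (adjusted p = 0.00925) and 0.87 ± 0.12 in cells (adjusted p = 1.04e-08). The KO male library's red cells held 968 CPM of Cyp4b1 and those of WT female 57.5, and the part of free RNA in the difference was not tested.

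**Figure D5:**
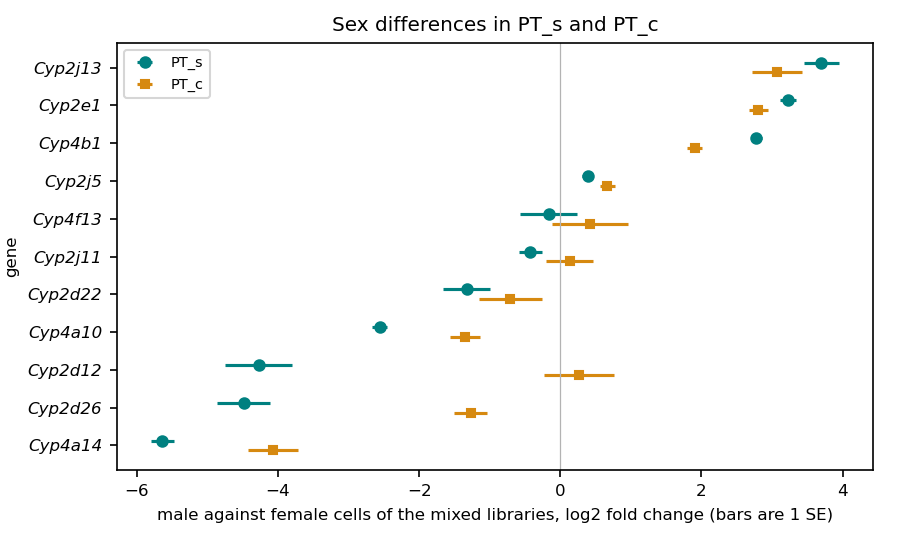
Log2 fold change of male against female cells of the mixed libraries in PT_s (circles) and PT_c (squares), bars of 1 approximate SE (from the F statistic), for 11 members tested in both clusters. The marks lie near each other for Cyp2j13, Cyp2e1 and Cyp2j5 and apart for Cyp4a10, Cyp2d12 and Cyp2d26, whose PT_s values lie further below 0.

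The smaller clusters were read over libraries alone. In PT_1 6.24% of genes and 6 of 13 members differed between the male and the female libraries, and in PT_2 6.36% of genes and 8 of 19 members. Cyp2j5, Cyp2a4, Cyp2d9 and Cyp2j13 were higher and Cyp2d26 was lower in both clusters, and Cyp2e1 was higher in PT_1. In PT_2, Cyp4a10 (-1.5 ± 0.25, log2 scale), Cyp4a31 and Cyp24a1 were lower, the last 2 with 1 and 2 UMIs in KO male. In PT_1 fewer members passed without KO female and more without WT mix or KO mix, and in PT_2 DESeq2 called fewer. The count over all genes moved the same way each time. With PT_s, PT_c, PT_1 and PT_2 summed, 19.4% of genes and 13 of 29 members differed over libraries, and 17% of genes and 12 of 18 members differed between male and female cells. That sum added Cyp7b1, higher in the male library (adjusted p = 0.0205), with 1 UMI in the female libraries and 10 in KO male, a ratio of 29.0 (95% counting interval 4.12 to 1257).

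In the loop of Henle 1.07% of genes and 4 of 19 members differed between the male and the female libraries, Cyp2j5, Cyp2a4 and Cyp2j13 upward and Cyp4a14 downward. All 4 moved as in PT_s, and all were at lower CPM than in the red cells of the KO male library or, for Cyp4a14, of the female libraries. Within the mixed libraries 0.36% of genes and 0 of 3 members differed (edgeR, and 0 of 3 at an unadjusted p under 0.05). Without KO female or WT female fewer members passed over libraries, and fewer of all genes. The part of free RNA in the values of these members was not tested.

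In PT_f Cyp2a4 stood apart from its level in PT_s. It had 928 (wild type) and 754 CPM (knockout) in the female libraries, 490 and 540 in WT mix and KO mix, the highest level of the gene in any type and above its range in PT_s (41.8 to 340 CPM). The contrast was widest in the female libraries, where PT_s cells had 41.8 and 44.0 CPM. Cyp2j11 (mean 264 CPM) and Cyp4a10 (mean 364 CPM, range 271 to 430) were also high in PT_f, with ranges that overlapped those in PT_s. Cyp4b1 was at 32.9 and 10.6 CPM in the PT_f cells of WT female and KO female, and Slc22a7, one of the markers of the straight tubule, was at 833 CPM there and at 47.1 in PT_s. A cluster's genes were used to make it, and no test is given.

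The label of PT_f as female-specific did not hold for every cell. The KO male library had 9 PT_f cells, of which 7 had Y gene UMIs and no Xist, and WT mix and KO mix had 6 and 4 such cells. The cells differed in Cyp7b1, the oxysterol 7-alpha hydroxylase. The male PT_f cells held 50 Cyp7b1 UMIs in KO male, 9 in WT mix and 16 in KO mix, in 6, 3 and 3 cells. The female PT_f cells of WT female, KO female and WT mix held none in 9, 12 and 24 cells, and those of KO mix held 9 UMIs in 88 cells. A further 36 PT_f cells of WT mix could not be called and held 50 Cyp7b1 UMIs.

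Cyp7b1 had 386 UMIs in all, 30.1% of them in the proximal clusters other than PT_f. The principal cells of the collecting duct (CD_PC) had 33.8 and 35.6 CPM in the female libraries (WT and KO), 66.7 in WT mix, 25.8 in KO mix and 24 in KO male, with 0 to 5.90 CPM in red cells. Cyp27a1, the mitochondrial sterol 27-hydroxylase, was spread over the proximal tubule with 15.5, 17, 17.1, 23.0 and 13.6 CPM in the PT_s cells of WT female, WT mix, KO female, KO male and KO mix. It was higher in the male library by 0.71 ± 0.22 (adjusted p = 0.0251), a call that DESeq2 or the loss of either female library ended. Podocytes (GL_podo) had 61.5 and 44.7 CPM of Cyp27a1 from 5 UMIs each. Cyp39a1, a further oxysterol hydroxylase, was highest in CD_IC/CD_Trans (26.3 ± 9.71 CPM, SD, 5 libraries) and CD_PC (25.5 ± 15), which did not differ beyond their spread.

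The vitamin D genes were read by their known roles. Cyp24a1, which breaks down the active hormone, had 702 UMIs and was highest in PT_c, where the female libraries had 46.8 (wild type) and 73.7 CPM (knockout), WT mix 51.1, KO mix 9.61 and KO male 20.7. PT_2 (mean 27.5 CPM) lay within its spread, and in PT_s the sex fit did not pass (adjusted p = 0.0669). Cyp27b1, which makes the active hormone, had only 66 UMIs, 89.4% in proximal tubule cells. In PT_c it had 16 UMIs (9.51 CPM) in WT mix, 5 (2.40) in KO mix, 3 (0.891) in KO female, 2 (1.72) in KO male and none in WT female, and it passed in no fit. Cyp2r1, a 25-hydroxylase of vitamin D, had 41 UMIs.

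The intercalated and transitional cells of the collecting duct (CD_IC/CD_Trans) held xenobiotic members that were scarce in the proximal tubule, where Cyp2s1 had 15.6% and Cyp3a13 had 6.85% of its UMIs. Cyp1a1, the enzyme that the dioxin receptor AhR induces, had 110 UMIs and none of them in proximal tubule cells. In these cells the wild type libraries had 69.0 (female) and 15.4 CPM (mixed) and the knockout libraries 44.7 (female), 49.1 (male) and 20.5 (mixed), with a mean of 0.823 in DCT, the next type, and 0 in red cells. Cyp3a13 was at 31.1, 15.4, 25, 15.3 and 18.2 CPM in the same order, and Cyp2s1 at 36.0 ± 18.5 CPM (SD, 5 libraries). Both mixed libraries were the lowest for Cyp1a1. Cyp2u1, a fatty acid hydroxylase, was alike in LOH (47.3 ± 20.1 CPM), CD_IC/CD_Trans (46.9 ± 14.9) and DCT (46.5 ± 12.4), which did not differ beyond their spread, and was at 0 to 5.94 in red cells.

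Glomerular endothelium held Cyp26b1, which clears retinoic acid. The wild type libraries had 148 (female) and 347 CPM (mixed) and the knockout libraries 207 (female), 63.0 (male) and 185 (mixed), against 0 to 2.95 in red cells, and 4.13% of its 581 UMIs were in the proximal tubule. Cyp20a1, an orphan member, was at 61.8, 116, 90.9, 63.0 and 101 CPM in the same cells and order. Fibroblasts (Fib) had Cyp1b1, which acts on estrogens and retinoids, at 90.5 CPM in WT female and 206 in KO mix, the libraries with at least 20 fibroblasts. Cyp11a1, the first enzyme of steroid hormone synthesis, had 12 UMIs, all in the WT female library. Cyp2d22 had 54.3 and 91.5 CPM in fibroblasts, above its mean of 43.7 in GL_endo and within the range of the latter at its lower value. The fibroblast values rest on few UMIs, from 22 cells in WT female and 21 in KO mix. There 1 UMI was 9.05 CPM in WT female, and 2 UMIs were 45.7 CPM in KO mix.

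The genes that serve P450 enzymes were taken as lists. Their counts in PT_s stand beside 22.9% of all genes called over libraries and 17% in cells. Of the electron donors, 9 were tested over libraries and 8 in cells, and 4 differed each way (3 higher and 1 lower in males), with a median log2 change of 0.25 and 0.27. Cyb5a, Cyb5r3 and Pgrmc1 passed both ways. Cyb5a, cytochrome b5, had 2674 (wild type) and 2508 CPM (knockout) in the female libraries, 1997 in WT mix, 1835 in KO mix and 5917 in KO male, higher by 1.41 ± 0.13 (adjusted p = 1.94e-07) and, in male cells, by 0.98 ± 0.06. Cyb5r3, its reductase, was higher by 1.14 ± 0.15 and 1.01 ± 0.21. Por, the reductase that all microsomal P450 enzymes need, was higher over libraries by 0.58 ± 0.15 (adjusted p = 0.0111) and at 0.27 ± 0.14 in cells did not pass (adjusted p = 0.227). Fdx1, the donor of mitochondrial P450 enzymes, was higher in male cells by 0.58 ± 0.11 (adjusted p = 5.16e-06) and did not pass over libraries (adjusted p = 0.0625). Pgrmc1, a haem-binding partner, was lower in both (log2 change -0.75 ± 0.15 and -1.19 ± 0.19).

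Of the epoxide hydrolases, which break down the products of the 2C and 2J enzymes, Ephx2 alone passed the low-count filter. It was at 167 and 163 CPM in WT female and KO female, 316 in WT mix, 209 in KO mix and 540 in KO male, higher by 1.93 ± 0.19 over libraries (adjusted p = 2.87e-05) and by 1.33 ± 0.13 in male cells (adjusted p = 5.97e-22). Of the haem genes, 2 of 12 differed over libraries, Cpox and Hmox1, both higher in the male, and 2 of 10 in cells, both near the share of all genes. Cpox was the one higher in both, by 0.61 ± 0.17 and 0.90 ± 0.21, and Alas1, the first step of haem synthesis, was lower in male cells (log2 change -0.72 ± 0.17).

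Of the receptors and factors, 6 of 15 differed over libraries (3 higher, 3 lower) and 4 of 12 in cells (2 higher, 2 lower), with medians of -0.29 and 0.23 that differ in sign. Prlr, the prolactin receptor, was at 258 and 333 CPM in WT female and KO female, 15.8 in WT mix, 39.6 in KO mix and 0.227 in KO male, lower over libraries (adjusted p = 0.0480) and in male cells (adjusted p = 3.51e-40). Nr1h4, the bile acid receptor FXR, was higher by 0.86 ± 0.15 and 0.82 ± 0.19. Ppara, the receptor that family 4A genes respond to, was lower in the male library (log2 change -1.11 ± 0.17, adjusted p = 1.00e-04; 75.9 and 75.5 CPM in the female libraries, 30.3 in KO male, and 27.8 and 29 in WT mix and KO mix, both below KO male) and in cells at -0.55 ± 0.31 did not pass (adjusted p = 0.246).

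Between knockout and wild type libraries, percent of genes called was 0 in each of 11 cell types (edgeR, libraries as replicates), and so was the count of members, of which 5 to 24 were tested per type. At an unadjusted p under 0.05 there were 0 members and 2 to 59 genes per type, and DESeq2 also called 0 members and 0 genes. Leading members overlapped between genotypes in PT_s: Cyp4b1 was at 250 and 1801 CPM in the wild type and at 246, 3793 and 1200 in the knockout libraries. The log2 change was 0.76 ± 1.34 for Cyp4b1, 0.57 ± 0.54 for Cyp2j5, 0.16 ± 1.42 for Cyp2e1 and -0.29 ± 1.59 for Cyp4a14. All 4 turned in sign without KO male, and the sexes were not balanced between the genotypes.

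The female libraries allow the most direct look at genotype, since they share sex and run, but there is 1 of each. In PT_s, the 11 members of at least 1000 UMIs that WT female contained were all within 1.5-fold of it in KO female, with ratios of 0.884 to 1.29 and a median of 0.957. In PT_c, 8 of 11 were, with ratios of 0.640 to 3.35. Those outside were Cyp4a14 (0.640) and Cyp4a10 (0.647), lower in KO female, and Cyp2a4 (3.35), which had 2 and 11 UMIs. The share of all genes within 1.5-fold was not counted. Female-called cells of all 4 libraries that hold them were compared too, an addition made after the data were seen. In PT_s, PT_c and LOH 0 members were called, of 22, 18 and 16 tested. Of all genes, 0 of 9496, 8367 and 7708 were called there, with 2 residual degrees of freedom. The log2 change in PT_s was -0.12 ± 0.34 for Cyp4b1 and -0.04 ± 0.32 for Cyp4a14.

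With the sex label of the library as a block, which left 1 residual degree of freedom, a few members passed. Cyp4b1 was lower in the knockout in PT_c (log2 change -0.68 ± 0.13, adjusted p = 7.46e-04; 0.253% of genes called), in LOH (-1.22 ± 0.19, adjusted p = 0.017; 0.0894%) and in PT_f (-1.75 ± 0.37, adjusted p = 0.00124; 0.418%). Cyp7b1 was lower in PT_f, where WT mix had 230 CPM, KO mix 50.7 and both female libraries 0. That call thus rests on WT mix against KO mix. The Cyp7b1 UMIs of WT mix were in male (9) and uncalled PT_f cells (50), and its 24 female cells held none. In PT_2 (0.233%), Cyp2e1 (-1.02 ± 0.20) and Cyp2j13 were lower, the latter with 0 UMIs in the proximal tubule cells of both female libraries. The label "mixed" stands for 67.9% male cells among those called in WT mix, against 22.7% in KO mix (42.1% against 10.1% by at least 2 UMIs). Cyp4b1, Cyp2e1 and Cyp2j13 were higher in male PT_s cells. In LOH, however, Cyp4b1 was at 235 and 26.6 CPM in the male and at 189 and 95.5 CPM in the female cells of WT mix and KO mix. Among female-called cells Cyp4b1 did not pass, with a log2 change of -0.48 ± 2.00 in LOH and -0.33 ± 0.40 in PT_c, and of -0.91 ± 0.34 and -0.40 ± 0.14 with the run as a block. The part of the share of males in these calls was not tested.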

How the data were processed

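Whole kidneys of *Fame* knockout and wild type mice were measured by single-cell RNA sequencing in 5 libraries. The deposited values are raw UMI counts per gene and cell. Per the study's methods, the authors made the counts with Cell Ranger 4.0.0 on mm10, removed from each library genes seen in under 3 cells, cells under 1000 counts and cells with a mitochondrial share above 50%, predicted doublets with Scrublet, and annotated clusters with Seurat 3.2.2.9001. The deposited percent column is each cell's share of mitochondrial counts and was used for description only. The gene filter was applied per library, so that a 0 may come from it. The deposited cells still hold 34 to 168 genes per library seen in 1 cell. No further doublet call was made.

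Counts were summed per library and annotated cell type, for sums of at least 20 cells, and tested over all genes of the type with edgeR 4.0.16 (TMM, filterByExpr, robust quasi-likelihood F test, two-sided, Benjamini-Hochberg, threshold 0.05) in R 4.3.3. Knockout was compared with wild type, the KO male library with the female libraries (sex label with 3 levels), and male with female cells of the mixed libraries (library as a block). The difference of the sex effect between PT_s and PT_c was tested as an interaction. A fitted log2 change of a gene at or near 0 in a group depends on the prior count and is not printed. DESeq2 1.42.0 was an alternative. The scripts were tested on simulated data. Intervals of ratios are exact and cover counting error only. Promoters (250 bases before the start) came from RefSeq, GRCm38.p6, and gene positions and the last 300 bases of transcripts from GENCODE on GRCm38. The promoter table holds 35 of the 49 members.

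Members with at least 200 UMIs, members past a threshold and Cyp27b1, Cyp24a1, Cyp2r1, Cyp27a1, Cyp1a1, Cyp1b1, Cyp26b1 and Cyp11a1 were described by name, with values per library for those of at least 1000 UMIs or past a threshold. The members, the partner lists and the markers were chosen with earlier results of these data known. Replicate numbers were given in accession order and pair nothing. The sequencing run and the sex label were used as blocks instead, since WT female and KO female, and WT mix and KO mix, share both. A member of the listed receptor genes is not reported here.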

Additional observations from a re-analysis of the deposited data

Results flagged for a closer look

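The effect of sex differed between PT_s and PT_c for 6 members over libraries and for 4 of these within the mixed libraries, by a test of the interaction of sex and annotated type with the library as a block. The test was added after the data were seen. Values are the log2 change of males against females in PT_s minus that in PT_c. Over libraries they were -3.57 ± 0.35 for Cyp2d26, -3.08 ± 0.70 for Cyp2d12, -1.39 ± 0.21 for Cyp4a10, -1.39 ± 0.47 for Cyp2a5, -1.01 ± 0.35 for Cyp2d22 and 0.49 ± 0.12 for Cyp4b1. Between male and female cells of the mixed libraries they were -3.09 ± 0.49 for Cyp2d26, -4.27 ± 0.66 for Cyp2d12, -1.34 ± 0.23 for Cyp4a10 and 0.87 ± 0.12 for Cyp4b1. Cyp2a5 (-1.86 ± 0.74, adjusted p = 0.217) and Cyp2d22 (-0.53 ± 0.51, adjusted p = 0.775) had the same sign in cells and did not pass. Cyp4a10, Cyp2a5, Cyp2d12, Cyp2d22 and Cyp2d26 have near copies in the genome, and the part of reads assigned to the wrong copy was not tested.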

How the results depend on the processing

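Of the single-gene values recomputed, 253 kept direction and side of the threshold, 19 lost the threshold and 17 turned. All that turned were genotype changes in PT_s, none of which passed. The sex values were of members past the threshold in the main fits, so a gain could not be counted for them. The genotype values were of 4 chosen members in PT_s. With the sex label as a replicate block Cyp4b1 was -0.30, Cyp2j5 -0.04, Cyp2e1 -0.19 and Cyp4a14 0.68. With only female-called cells Cyp4b1, Cyp2j5 and Cyp2e1 were -0.12, -0.03 and -0.47, and with the run as a replicate block besides -0.09, -0.02 and -0.13. Without KO male (knockout replicate 2) the 4 genes were -0.52, -0.04, -0.65 and 0.29, and without WT female (wild type replicate 1) Cyp4b1, Cyp2e1 and Cyp4a14 were -0.08, -0.76 and 1.43. Over all libraries left out in turn, the ranges were -0.52 to 3.03 for Cyp4b1, -0.04 to 0.85 for Cyp2j5, -0.76 to 3.48 for Cyp2e1 and -1.14 to 1.43 for Cyp4a14. The cause was not tested.

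The sex label block gave 1 member called by genotype in LOH, 1 in PT_c, 2 in PT_2 and 2 in PT_f. The run as a block gave 2 in PT_f and changed no other call, and leaving out libraries gave 0 to 2 in PT_f, the 2 (Cyp7b1 and Cyp4b1) without WT female. By sex over libraries, PT_c had 11 members with genotype as a covariate, 9 with the single-sex libraries only and 6 to 10 with 1 library left out, 10 without WT mix or KO mix, against 5. DESeq2 called 4 in PT_2 (8 in the report), 2 in LOH (4) and, in cells of PT_c, 4 (7). Leaving out a library gave 2 to 6 in LOH, 2 without KO female or WT female, and 3 to 9 in PT_1, 3 without KO female and 9 without WT mix or KO mix. For PT_1, PT_2, LOH and the cells of PT_c the count over all genes moved the same way in these settings. In PT_c over libraries members rose to 7 without KO female and to 6 without WT female. The count over all genes fell there, from 455 to 385 and 424. With genotype as a covariate, the single-sex libraries only, or without WT mix or KO mix, both counts rose. In PT_s, DESeq2 lost Cyp27a1, Cyp2a5, Cyp2c23 and Cyp2j6 over libraries and Cyp2d22, Cyp2d9, Cyp2j5 and Cyp4a31 in cells. There it also called fewer of all genes, both over libraries and in cells. Cyp27a1 and Cyp2j6 were also lost with genotype as a covariate and without WT female or KO female, Cyp2a5 without KO female. Over libraries, DESeq2 and the fits without a mixed library also called members in PT_s that the main fit did not. The summed level in VSMC was 803 CPM in cells of at least 2000 UMIs, against 998. Without the library block, cells gave 14 members in PT_s (13) and 6 in PT_c (7). No paired analysis was possible by replicate number because the numbers were given in accession order. With 1 male library and 3 or fewer UMIs of some members in females, depth limits fold changes to bounds.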
